A study of Homo sapiens with 17 samples.

Results

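Collagen chains are the building blocks of the main structural proteins of the extracellular matrix. The genes described here are those whose symbol has the form COL, a type number, A and a chain number. They number 41 of the 17687 genes measured, each represented by 1 probe set. COL3A1, COL7A1 and COL17A1 had no probe set paired with that symbol alone and were not analysed here. The rule reads the symbol alone.

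The arrays came from MDA-MB-231, a triple-negative breast cancer line with mesenchymal features, and from cells titled MCF10, the name of a non-tumorigenic mammary epithelial line. Cells were seeded for 24 h and then treated for 48 h. MDA-MB-231 was hybridised on 2 arrays for each dose of Maraviroc (IC20 and IC50) and for its solvent ethanol, on 2 for each dose of DZH_2 (IC20 and IC50) and for its solvent DMSO, and on 1 array without treatment. The MCF10 cells had a lone array for each of 4 conditions, which were no treatment, DMSO and both doses of DZH_2. Maraviroc is an antiviral drug, and DZH_2 is known here only by its code name. IC20 and IC50 name concentrations that inhibit by 20% and 50%; neither the concentrations nor the inhibited process is stated. The 4 arrays titled MCF10 carry MDA-MB-231 in their cell line field; the titles were followed, and the groups are called MCF10-titled below. The labels do not say that replicates were separate cultures, so every p-value here measures only how far these arrays differ, a spread that may be technical.

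Collagen chains are made in the endoplasmic reticulum, where prolines and lysines are hydroxylated before the chains wind into a triple helix. Fibrillar collagens assemble into the fibres of stroma, type IV collagens form the sheet of the basement membrane, type VI collagens form beaded filaments around cells, and FACIT collagens sit on the surface of fibrils. Transmembrane collagens span the plasma membrane, and COL18A1, a multiplexin, carries heparan sulfate chains in basement membranes. In breast tissue, epithelial cells rest on a type IV sheet, and most fibrillar collagen is made by stromal fibroblasts.

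Most collagen genes gave a low signal. A gene was called near the negative controls in a group where its mean log2 signal was under the upper quartile (75th percentile) of 612 negative control probe sets on those arrays. By this limit 26 of the 41 genes were above the negative controls in at least 1 of the 11 groups, and 15 were above in none. The share of all genes above the limit is not given here. The median signal over all genes was above it on every array. On the MDA-MB-231 arrays these medians were 6.84 to 7.08, against limits of 5.64 to 6.46. On the MCF10-titled arrays they were 6.64 to 6.74, against limits of 6.05 to 6.60. With the 95th percentile as the limit, 10 genes were above in at least 1 group. The 15 genes above in no group were COL4A3, COL4A6, COL5A3, COL6A5, COL8A2, COL9A2, COL9A3, COL10A1, COL11A1, COL11A2, COL14A1, COL19A1, COL21A1, COL22A1 and COL24A1, with log2 signals of 2.59 to 6.25 on single arrays. In the ethanol arrays 20 of the 41 genes were above, in the Maraviroc IC50 arrays 13, and in the MCF10-titled DMSO array 19. The limit also differed, at 5.76, 6.44 and 6.21 in these groups, so the counts do not measure expression alone. Among the genes above in ethanol but not at Maraviroc IC50, COL2A1, COL5A2, COL25A1 and COL27A1 had a higher mean at IC50. COL4A1, COL13A1 and COL15A1 had a lower mean there.

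A core of 12 genes was above the negative controls in all 7 MDA-MB-231 groups, and 11 of them also in all 4 MCF10-titled groups. Among the fibrillar chains this held for COL1A2, a chain of type I collagen, with a median log2 signal of 8.30 over the 13 MDA-MB-231 arrays (7.75 to 8.80) and of 8.16 over the 4 MCF10-titled arrays (7.73 to 8.55). The partner chain COL1A1 had a median of 5.69 in MDA-MB-231 and was above the limit in none of its groups. COL2A1, COL5A2 and COL27A1 passed the limit in 5, 2 and 2 MDA-MB-231 groups. Their medians over those arrays were 6.20, 5.85 and 5.90. The limit itself lay between 5.64 and 6.46 on the MDA-MB-231 arrays and between 6.05 and 6.60 on the MCF10-titled arrays.

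The other core genes were spread over the classes. COL4A2 of the basement membrane had a median of 9.08 in MDA-MB-231 and 9.50 in the MCF10-titled arrays. COL6A1, of the beaded filaments, had medians of 11.99 and 9.94, and its partner COL6A2 9.80 and 7.92. COL8A1, a short chain collagen that forms hexagonal networks, had medians of 7.55 and 10.59. The FACIT genes COL12A1, COL16A1 and COL20A1 had medians of 9.005, 6.50 and 6.92 in MDA-MB-231. COL23A1, a transmembrane collagen, had medians of 9.29 and 9.56, and COL18A1 7.94 and 7.76. COL26A1 and COL28A1, which belong to none of these classes, had medians of 6.70 in MDA-MB-231. COL15A1, the other multiplexin, passed the limit in 3 of the 7 MDA-MB-231 groups and 1 of the 4 MCF10-titled groups, with medians of 5.98 and 6.09. Each of these genes was read by a different probe set, so these values show where a gene was detected and do not rank the genes.

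**Figure D1:**
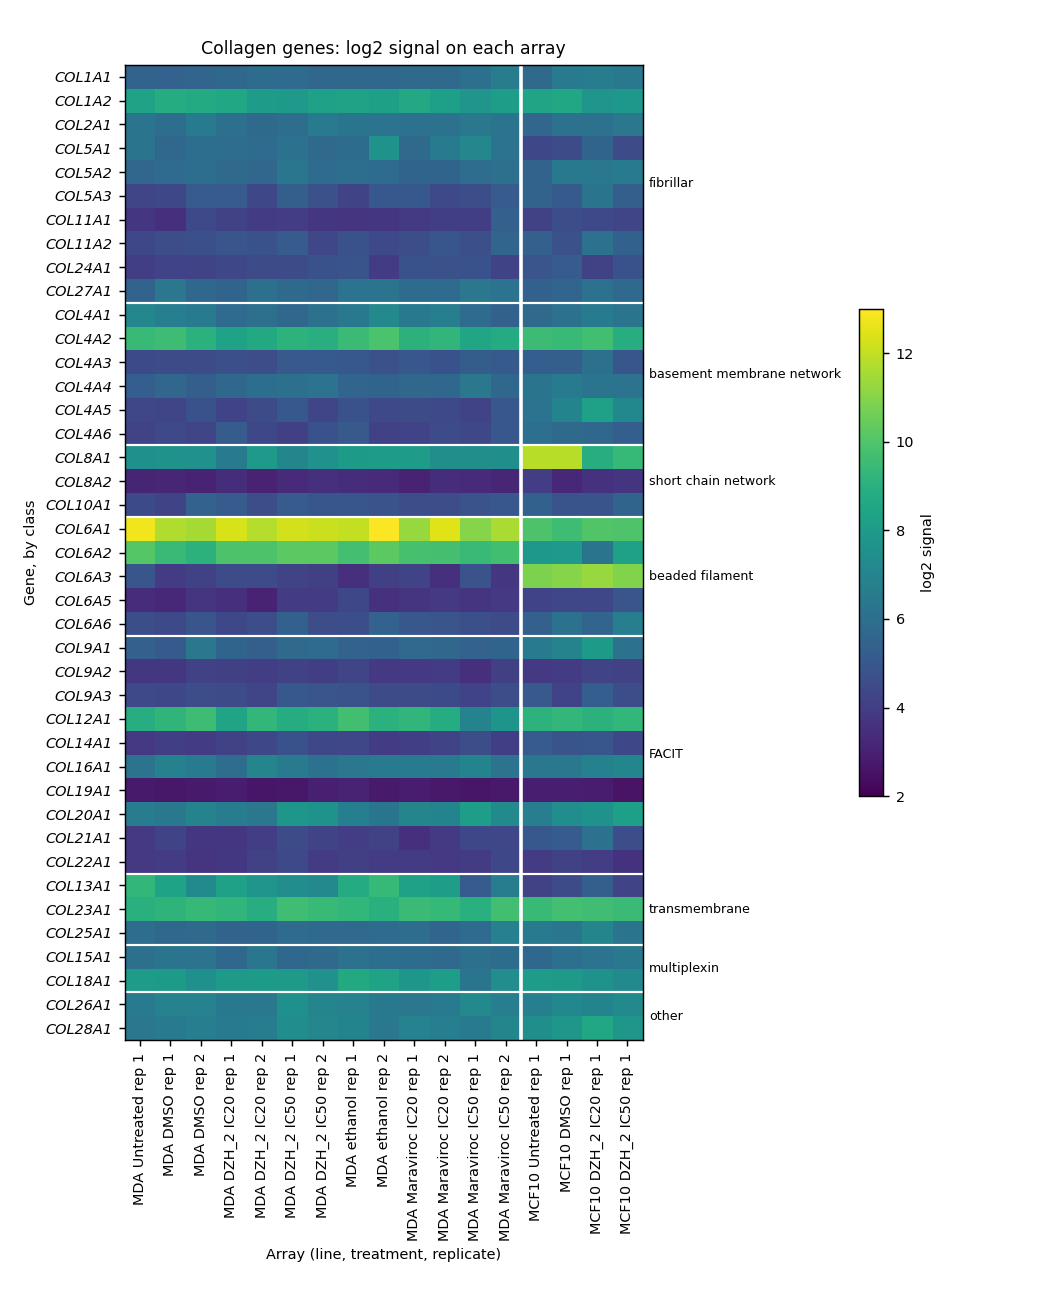
The log2 signal of the 41 collagen genes (rows, by class) is shown on each of the 17 arrays (columns, by line, treatment and replicate), with the colour scale in log2 units; MDA stands for MDA-MB-231 and the white vertical line separates the MCF10-titled arrays. COL6A3 is bright only in the 4 MCF10-titled columns (10.85 to 11.30), and COL13A1 is dark in those columns and dim in the 2 Maraviroc IC50 columns.

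Replicates of most groups lay close together. The root mean square SD between replicates over the 41 genes was 0.240 to 0.374 in 5 of the replicated groups and 0.448 for Maraviroc IC50. Over all genes it was 0.277 to 0.366 in those 5 groups and 0.546 for Maraviroc IC50. The median log2 signal over genes was 6.84 to 7.08 on the MDA-MB-231 arrays and 6.64 to 6.74 on the MCF10-titled arrays, and the interquartile range was 4.05 to 4.65 and 3.34 to 3.62. Between 9 and 27 probe sets held exactly equal values on a pair of MDA-MB-231 arrays, against 0 to 2 on pairs that crossed the lines and on pairs of MCF10-titled arrays. Whether all arrays were normalized together is not stated in the labels, and its part in the differences between the lines was not tested.

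The comparison of Maraviroc IC50 with ethanol addressed how the compound altered expression in MDA-MB-231. At this dose 5 collagen genes fell and 1 rose. The falls were in COL13A1, COL12A1, COL18A1, COL4A1 and COL4A2, and the rise was in COL20A1. Over all 17687 genes, 15% were lower and 12% higher by the same test (limma, Benjamini-Hochberg adjusted p under 0.05). The lower count, 5 of 41, lies near that background, and the higher count, 1 of 41, lies below it. The median log2 difference was 0.06 over the 41 genes and 0.11 over all genes.

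COL13A1, a transmembrane collagen found at cell junctions and at the neuromuscular synapse, was lower at Maraviroc IC50. Its log2 signal was 8.77 and 9.37 in ethanol and 5.19 and 6.68 at Maraviroc IC50. Both treated arrays lay below both solvent arrays, and the treated mean of 5.93 was below the negative control limit of 6.44. The log2 difference was -3.14 ± 0.47 (SE from limma over 12 arrays; adjusted p = 0.000354). The untreated array, at 9.26, lay within the ethanol range. The ethanol mean was itself above the DMSO mean by 1.24, with an unadjusted p of 0.0205 and an adjusted p of 0.602 in limma. The DMSO arrays read 8.40 and 7.26, so the Maraviroc IC50 arrays were also below both of these.

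COL12A1, a FACIT collagen that binds type I fibrils in tissues under tension, read 9.65 and 9.03 in ethanol and 6.92 and 7.68 at Maraviroc IC50. The treated arrays did not overlap those of any other MDA-MB-231 group, the lowest of which was 8.41. The log2 difference from ethanol was -2.04 ± 0.37 (limma adjusted p = 0.00129), to 0.243 times the solvent signal. COL18A1, the precursor of endostatin, read 8.66 and 8.32 in ethanol and 6.27 and 7.38 at Maraviroc IC50. It fell by 1.67 on the log2 scale (SE 0.35; limma adjusted p = 0.00356), and its 2 treated arrays differed from each other more than the ethanol arrays did. Without Maraviroc IC50 replicate 1 the COL18A1 difference was -1.11, still past the threshold. The partner multiplexin COL15A1 differed by -0.08, with an adjusted p of 0.862.

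COL4A1 and COL4A2 encode the chains found in nearly all basement membranes. COL4A1 read 6.46 and 7.17 in ethanol and 5.86 and 5.41 at Maraviroc IC50, where both arrays were near the negative controls. Its log2 difference was -1.18 ± 0.30 (limma adjusted p = 0.0103), and against the negative control limit the solvent signal was at least 1.3-fold higher. COL4A2 read 9.49 and 9.89 in ethanol and 8.45 and 8.76 at Maraviroc IC50, a difference of -1.09 ± 0.28 (limma adjusted p = 0.0127). Both treated arrays of both genes lay below the ethanol arrays. Without ethanol replicate 2, COL4A1, COL4A2 and COL20A1 were no longer past the threshold and the count of 6 became 3. COL4A1 also lost its call without Maraviroc IC50 replicate 2, and COL4A2 without replicate 1. The calls for COL12A1, COL13A1 and COL18A1 held in all 11 alternatives, including those that left out 1 array at a time.

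COL4A1 and COL4A2 lie next to each other and are transcribed in opposite directions. The stretch between their RefSeq starts is printed because both genes fell together in this comparison. It lies at chr13:110307158-110307283 (GRCh38.p14, + strand, the direction of COL4A2), is 126 bases long and 80.2% G or C. Capitals mark a CCAAT box (CCAAT) and a GC box (GGGCGG), searched on both strands.
COL4A1-COL4A2 gap: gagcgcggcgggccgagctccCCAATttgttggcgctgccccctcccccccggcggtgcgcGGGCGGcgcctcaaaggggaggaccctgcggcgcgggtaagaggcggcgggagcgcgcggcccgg
A GC box was found in 34.6% and a CCAAT box in 21.1% of the 126 bases before the start in the 35116 RefSeq promoters of that table. The TATA box (TATAAA) and the AP-1 element (TGANTCA), also searched, had no match in it. The matches are descriptions of the letters and not sites of binding.

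COL20A1, a little studied FACIT collagen, read 6.74 and 6.30 in ethanol and 8.18 and 7.22 at Maraviroc IC50. Both treated arrays were above both solvent arrays, and the log2 difference was 1.18 ± 0.33 (limma adjusted p = 0.0189). It was called in 7 of the 11 alternatives; the calls were lost with array weights, with the groups compared alone, and without Maraviroc IC50 replicate 1, where the difference was 0.70, or ethanol replicate 2.

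Several collagens above the negative control limit in all 7 MDA-MB-231 groups did not pass the threshold. COL6A1 read 11.99 and 12.94 in ethanol and 11.02 and 11.61 at Maraviroc IC50, a difference of -1.15 with a limma adjusted p of 0.054. COL6A2 differed by -0.44 (adjusted p = 0.249), COL8A1 by -0.56 (0.319), COL1A2 by -0.35 (0.411) and COL23A1 by 0.20 (0.664), all in limma. COL26A1 differed by 0.27 and COL28A1 by 0.10, and COL16A1 by 0.13. For COL16A1 only 1 of the 2 Maraviroc IC50 arrays was above the limit. The 10 fibrillar genes had no call, with a median log2 difference of 0.12. COL1A1 differed by 0.70 (limma adjusted p = 0.0665) and COL5A1 by -0.12.

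With each array centred on its median, the median difference of all genes moved from 0.11 to 0.28 and the share of higher calls among all genes called moved from 44.4% to 56.7%. The count of collagen genes called then became 8, of which 3 were higher and 5 lower. Markers of 4 kinds were read in this comparison, with calls counted in either direction. The summed log2 signal of 8 mesenchymal state markers was 63.8 and 67.0 at Maraviroc IC50 against 77.6 and 78.2 in ethanol. Of these 5 were called. For the 7 basal mammary markers the sum was 36.2 and 39.3 against 44.5 and 45.6, and 2 were called. For the 14 stromal fibroblast markers it was 73.7 and 80.0 against 74.0 and 75.4, and 4 were called. For the 13 epithelial markers, of which 5 were called, it was 87.3 and 88.3 against 90.9 and 94.7. Among all genes 12% were called higher and 15% lower. The part of these markers in the collagen result was not tested. In bulk RNA fewer cells of a kind and less RNA per cell cannot be told apart.

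**Figure D2:**
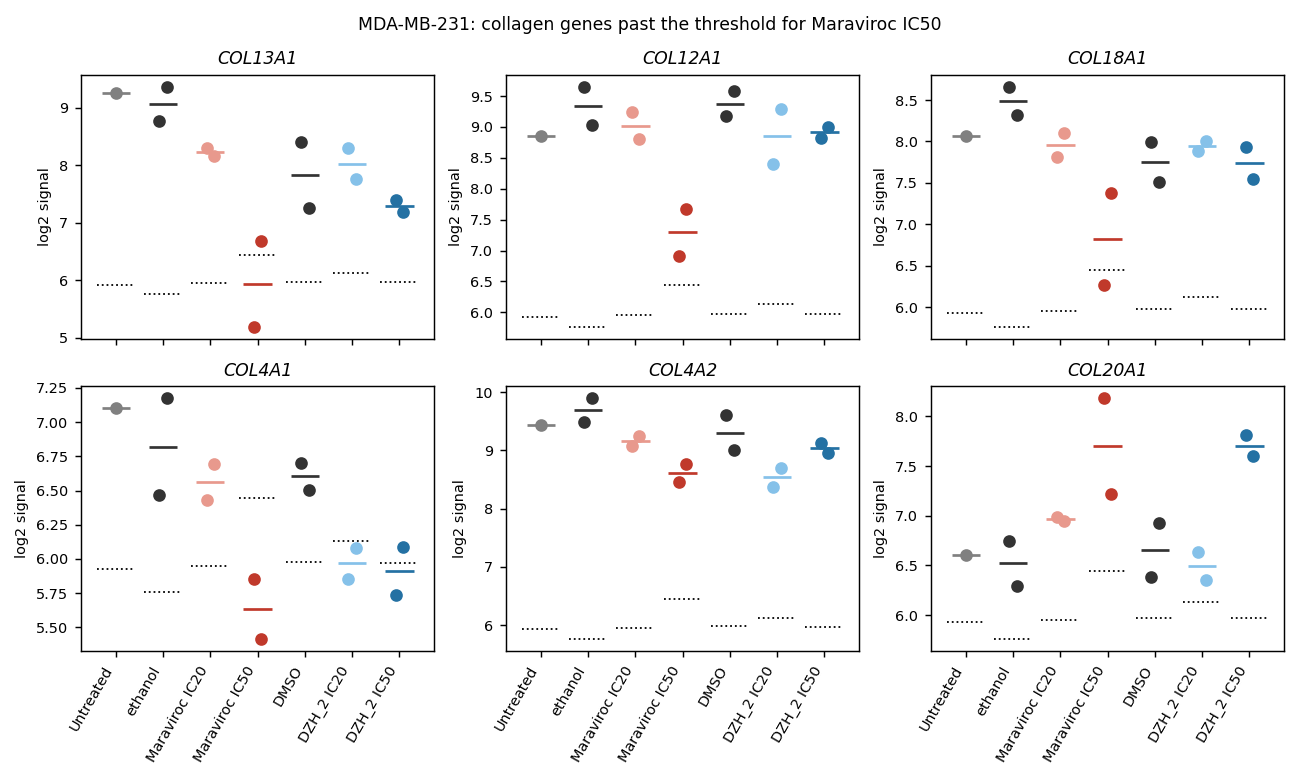
The log2 signal of the 6 collagen genes called for Maraviroc IC50 is shown in the 7 MDA-MB-231 groups, with a point per array, a solid line at the group mean and a dotted line at the group's negative control limit. The Maraviroc IC50 points of COL13A1 and COL12A1 lie below all others, and the mean of COL13A1 there (5.93) is below the dotted line at 6.44.

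The doses of Maraviroc were compared next. At IC20 no collagen gene passed the threshold against ethanol in limma, where 0% of all genes were called, and none of the 41 had an unadjusted p under 0.05, against 309 of all genes. By the replicate block, array weights and every other alternative run for this comparison the count was also 0. For the genes called at IC50, the IC20 values were as follows. COL13A1 read 8.30 and 8.16 at IC20, below both ethanol arrays, with a difference of -0.84 (95% interval -1.85 to 0.17). COL12A1 differed by -0.32, COL18A1 by -0.54, COL4A1 by -0.26, COL4A2 by -0.53 and COL20A1 by 0.45, and each 95% interval held 0.

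Between IC50 and IC20 of Maraviroc, 4 collagen genes were lower and none higher, against 14.8% lower and 11.9% higher among all genes. COL13A1 differed by -2.30 ± 0.47 (limma adjusted p = 0.0029) and COL12A1 by -1.73 ± 0.37 (limma adjusted p = 0.00388). These calls held in all 10 alternatives. COL18A1 differed by -1.13 (limma adjusted p = 0.0305) and COL4A1 by -0.92 (limma adjusted p = 0.0362). Without Maraviroc IC20 replicate 1, or without its replicate 2, COL18A1 and COL4A1 lost their calls and the count of 4 became 2. The COL18A1 call held in 3 of 10 alternatives, with values of -1.69 to -0.57. It was also lost with quantile normalization, median centring, array weights, the groups compared alone and without Maraviroc IC50 replicate 1, which gave -0.57. The COL4A1 call held in 4 of 10, with values of -1.15 to -0.70, and was also lost with median centring, array weights, the groups compared alone and without Maraviroc IC50 replicate 2. The share of higher calls among all genes called was 44.7%, and 56.6% with median centring, where 3 collagen genes were called. This comparison shares the IC50 arrays with the comparison against ethanol.

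DZH_2 changed no collagen gene past the threshold in MDA-MB-231. At IC50, 0 of 41 were called, against 0.582% higher and 0.984% lower among all genes, and 6 of the 41 had an unadjusted p under 0.05 in limma, as did 2675 of the 17687. COL6A2 read 9.45 and 9.09 in DMSO and 10.23 on both DZH_2 IC50 arrays. The treated arrays were above the solvent arrays, with a difference of 0.96 (95% interval 0.39 to 1.53; limma adjusted p = 0.0905). COL20A1 read 6.39 and 6.92 in DMSO and 7.81 and 7.60 at IC50. Its groups did not overlap either, with a difference of 1.05 (95% interval 0.33 to 1.77; limma adjusted p = 0.144). With the 2 Maraviroc IC50 arrays left out of the fit, or with array weights, both genes were called and the count became 2; with all 5 control arrays pooled it was 1, COL20A1.

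COL4A1 lay lower in DZH_2 than in DMSO at both doses, without a call. It read 6.70 and 6.51 in DMSO, 5.86 and 6.08 at IC20, and 5.74 and 6.09 at IC50. The differences were -0.64 at IC20 and -0.69 at IC50 (limma adjusted p = 0.427 and 0.292), and the group means at both doses were near the negative controls. COL4A2 differed by -0.77 at IC20 (limma adjusted p = 0.273) and by -0.27 at IC50. At IC20, 0 of 41 genes were called, with 2 of 41 and 2118 of all genes at an unadjusted p under 0.05 in limma, against 0.435% of all genes called in each direction. With all 5 control arrays pooled the count at IC20 was 1, COL4A2, which was lower.

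Between the doses of DZH_2 no collagen gene was called by limma, with 3 of 41 and 721 of all genes at an unadjusted p under 0.05 and 0% of all genes called. COL20A1 was higher at IC50 than at IC20 on both arrays, by 1.21, and COL26A1 by 0.84, each with an adjusted p of 0.999. The solvents did not separate any collagen gene past the threshold in limma either, with 0% of all genes called and 2 of 41 and 1352 of all genes at an unadjusted p under 0.05. The 2 collagen genes were COL13A1 and COL6A2, which read higher in ethanol than in DMSO by 1.24 and 0.71. In both of these comparisons every alternative gave 0 calls. Quantile normalization moved the share of higher calls among all genes called for DZH_2 IC50 from 37.2% to 50.9%.

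At each inhibitory concentration the response to DZH_2, its difference from DMSO, was set against the response to Maraviroc, its difference from ethanol, which made 2 comparisons per gene. At IC50, COL13A1 and COL6A2 were called, both higher with DZH_2 than with Maraviroc, against 4.02% higher and 2.15% lower among all genes. COL13A1 differed from solvent by -0.54 with DZH_2 and by -3.14 with Maraviroc, and the compounds differed by 2.59 ± 0.66 (limma adjusted p = 0.0361). COL6A2 differed from solvent by 0.96 and -0.44, and the compounds differed by 1.40 ± 0.37 (limma adjusted p = 0.043). COL13A1 was called against solvent with Maraviroc but not with DZH_2, and COL6A2 with neither. The solvents enter these differences, and for both genes the ethanol arrays were above the DMSO arrays, by 1.24 and 0.71. On the treated arrays COL13A1 read 7.39 and 7.19 with DZH_2 and 5.19 and 6.68 with Maraviroc, and COL6A2 read 10.23 on both DZH_2 arrays and 9.41 and 9.67 with Maraviroc, without overlap. Both calls rest on single arrays. Without DZH_2 IC50 replicate 1, without its replicate 2, without DMSO replicate 2 or without ethanol replicate 2 the count was 0. It was 1 without DMSO replicate 1 (COL13A1), without ethanol replicate 1 (COL6A2) and without Maraviroc IC50 replicate 1 (COL11A1), and 4 without Maraviroc IC50 replicate 2. With median centring the count was 1, COL13A1, and the share of higher calls among all genes called moved from 65.2% to 54.0%.

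For the other genes called with Maraviroc IC50 the compounds were not separated. The difference between the compounds was 1.66 for COL18A1 (95% interval 0.59 to 2.74; limma adjusted p = 0.0699) and 1.58 for COL12A1 (0.45 to 2.70; 0.0977). It was 1.73 for COL6A1 (0.47 to 2.98; 0.104). For COL4A2 it was 0.82 (-0.05 to 1.69) and for COL4A1 0.49 (-0.42 to 1.41). COL20A1 differed between the compounds by -0.13, with an interval of -1.16 to 0.89 that leaves room for differences near 1 in either direction. At IC20 no collagen gene was called by limma, with 1 of 41, COL6A2, and 1273 of all genes at an unadjusted p under 0.05 and 0% of all genes called; every alternative gave 0.

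**Figure D3:**
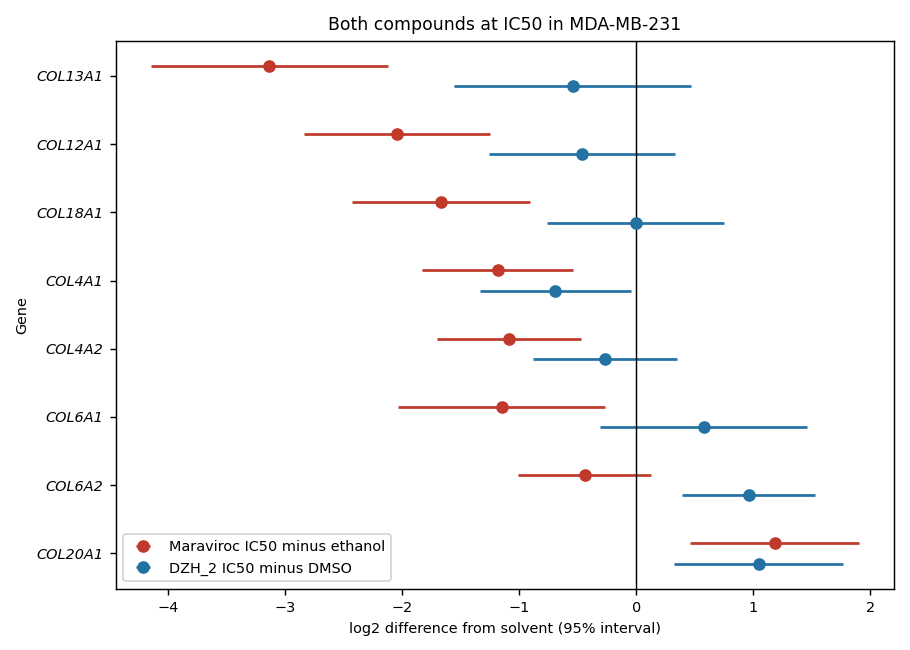
The log2 difference from solvent is shown for Maraviroc IC50 (red) and DZH_2 IC50 (blue) in MDA-MB-231, with 95% intervals from limma, for 8 collagen genes. The intervals for COL13A1 do not overlap (-4.15 to -2.13 and -1.55 to 0.47), while those for COL20A1 cover almost the same range.

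The other genes of collagen making and breakdown were taken from 6 lists, of which 53 of 56 genes were measured. At Maraviroc IC50, 7 of the 53 were higher and 8 lower than in ethanol, near the 12% higher and 15% lower among all genes. The list of modification and folding in the endoplasmic reticulum held 6 of the lower and 2 of the higher genes among its 17, with a median log2 difference of -0.28 against 0.11 over all genes. Without ethanol replicate 2, P3H1, PPIB, FKBP10 and COLGALT1 lost their calls, and the list kept P3H2 and CRTAP as its lower genes. The call for P3H1 held in 3 of 11 alternatives and that for PPIB in 5 of 11. P3H2, a prolyl 3-hydroxylase, fell from a mean of 12.39 to 7.50 (-4.88 ± 0.27; limma adjusted p = 6.64e-07). CRTAP, a partner of prolyl 3-hydroxylase 1, fell from 16.05 to 13.07 (-2.98; limma adjusted p = 0.000449). P4HA2, a catalytic subunit of prolyl 4-hydroxylase, rose from 10.05 to 13.17 (3.11; limma adjusted p = 0.000558). FKBP14, a prolyl isomerase, rose by 1.35 (limma adjusted p = 0.00443).

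In the remaining lists LOXL1, a cross-linking oxidase, fell from 11.41 to 7.51 (-3.90; limma adjusted p = 0.000336) as 1 of 4 measured. Among 9 receptors, the discoidin domain receptors DDR1 and DDR2, tyrosine kinases that bind collagen, rose by 1.73 and 1.24 (limma adjusted p = 0.0186 and 0.00439). DDR2 was near the negative controls on both ethanol arrays, and against the ethanol limit of 5.76 its treated signal was at least 1.79-fold higher. The limit of the treated arrays was higher, at 6.44, so this fold is not a bound on a rise above the treated arrays' own limit. Among 8 breakdown genes, CTSK, a collagen-degrading cathepsin, rose by 1.96, MMP2 by 1.40 and PEPD by 0.83 (limma adjusted p = 0.00232, 0.00855 and 0.027). MMP2 was near the negative controls on all 4 of those arrays. The part of the higher limit at Maraviroc IC50 in the DDR2 and MMP2 rises was not tested. KLHL12, which helps to load procollagen into large vesicles, fell by 0.99 (limma adjusted p = 0.0338) as the only call among the 7 genes of the export list. None of 8 propeptide cleavage genes was called. The calls for P3H2, CRTAP, P4HA2, FKBP14, LOXL1, DDR2 and CTSK held in every alternative that tested them. Without ethanol replicate 1 the count of 15 was 9 and DDR1, MMP2, PEPD and KLHL12 lost their calls, and without ethanol replicate 2 it was 9 and PEPD and KLHL12 were among those that lost theirs. DDR1 and KLHL12 also lost theirs without Maraviroc IC50 replicate 2, and PEPD and KLHL12 without replicate 1. With DZH_2 IC50, MIA2, an export gene, was the only one of the 53 called, differing by -1.72 (limma adjusted p = 0.0276), and it lost its call when either DZH_2 IC50 array or either DMSO array was left out. Between the compounds at IC50, P3H2, CRTAP and LOXL1 were higher with DZH_2, by 4.27, 3.01 and 3.50 (limma adjusted p = 0.000324, 0.0166 and 0.0244). The call for P3H2 held in all 14 alternatives. CRTAP lost its call without DZH_2 IC50 replicate 2, DMSO replicate 1 or either ethanol array, and LOXL1 without either DZH_2 IC50 array, either DMSO array or ethanol replicate 2.

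The comparison of the MCF10-titled arrays with MDA-MB-231 used 4 and 7 arrays under the treatments that both lines received. Here 17 collagen genes were higher in the MCF10-titled arrays and 4 were lower. Over all genes 23.1% were higher and 30.7% lower (limma, adjusted p under 0.05). The median log2 difference of the 41 genes was 0.37, against 0.02 over all genes. Most collagen genes were dim, and the negative controls were themselves brighter on the MCF10-titled arrays. Their median was 5.01 to 5.30 there and 4.71 to 4.96 on the 7 MDA-MB-231 arrays. The part of this shift in the collagen median was not tested. Each gene's log2 difference is the line term of a fit that also holds the treatments and takes each treatment effect to be the same in both lines. Of the 17 higher genes 7 were above the negative controls in no group of either line, so for them both levels were below the limit.

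COL6A3, the large chain of type VI collagen, was higher in the MCF10-titled arrays. Its log2 signal was 10.85 in untreated MCF10-titled cells, 10.99 in DMSO, 11.30 at DZH_2 IC20 and 10.93 at DZH_2 IC50. Over the 13 MDA-MB-231 arrays it was lowest at 3.48, with a median of 4.11 and a highest value of 4.94, all near the negative controls. The log2 difference was 6.65 ± 0.20 (limma adjusted p = 8.88e-10), and against the negative control limit the MCF10-titled signal was at least 32.1-fold higher. Its partner chains went the other way. COL6A1 read 9.58 to 9.997 in the MCF10-titled arrays and 11.02 to 12.94 in MDA-MB-231, without overlap, and was lower by -2.25 ± 0.20 (limma adjusted p = 2.19e-06), to 0.21 times. COL6A2 read 7.87, 7.96, 6.25 and 8.29 in untreated, DMSO, IC20 and IC50 MCF10-titled cells and 9.09 to 10.24 in MDA-MB-231. It was lower by -2.30 ± 0.31 (limma adjusted p = 6.32e-05), to 0.204 times. The chains COL6A5 and COL6A6 were higher by 0.94 and 1.27 (limma adjusted p = 0.000818 and 0.000492); COL6A5 was near the negative controls in every group and COL6A6 was above in 1 of 11.

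COL13A1 was lower in the MCF10-titled arrays. It read 4.13, 4.50, 5.33 and 4.24 in untreated, DMSO, IC20 and IC50 MCF10-titled cells, each near the negative controls. In MDA-MB-231 the median was 8.16, and every array outside Maraviroc IC50 read 7.19 or more. The log2 difference was -3.44 ± 0.34 (limma adjusted p = 5.81e-06), and the MDA-MB-231 signal was at least 3.18-fold higher. COL5A1, a fibrillar chain that limits fibril width, was lower by -1.18 ± 0.23 (limma adjusted p = 0.00107), with 4.38 to 5.55 in the MCF10-titled arrays. It was above the limit in 4 of the 7 MDA-MB-231 groups, but of those compared here only in untreated cells. Of the arrays compared, 2 of 7 from MDA-MB-231 and 0 of 4 titled MCF10 were above it. The difference thus lies mostly between values near the negative controls, and no fold bound is given.

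The RefSeq promoters of COL6A3 and COL13A1 are printed as the 250 bases before the start on the gene's strand. Each of these genes lay near the negative controls in the line where it was lower. Whether the promoter letters bear on the contrast between the lines was not tested. COL6A3 lies at chr2:237414165-237414414 on the - strand and COL13A1 at chr10:69801656-69801905 on the + strand (GRCh38.p14). Capitals mark a match to the GC box, CCAAT box, TATA box or AP-1 element on either strand.
COL6A3 promoter: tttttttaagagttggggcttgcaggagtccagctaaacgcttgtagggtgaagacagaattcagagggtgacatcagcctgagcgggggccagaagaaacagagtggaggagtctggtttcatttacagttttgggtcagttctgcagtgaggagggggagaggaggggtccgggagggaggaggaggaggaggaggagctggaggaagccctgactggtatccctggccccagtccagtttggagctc
COL13A1 promoter: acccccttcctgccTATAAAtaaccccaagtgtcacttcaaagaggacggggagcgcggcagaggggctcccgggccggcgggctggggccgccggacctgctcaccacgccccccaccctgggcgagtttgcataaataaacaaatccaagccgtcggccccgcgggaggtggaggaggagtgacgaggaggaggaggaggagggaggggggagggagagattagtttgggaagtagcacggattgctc
The COL13A1 stretch held 1 match to the TATA box letters, near the end of the stretch that is farthest from the start. Such a match, at any position, was found in 10.7% of promoters of this length. The distance from the start was not part of the search, so the match describes letters and not a working TATA box. The COL6A3 stretch held none of the 4 motifs. The G and C content was 64.0% and 56.0%. Of the 41 genes 30 had a promoter in the RefSeq set, and COL8A1, COL6A1 and COL1A2 had none.

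COL8A1, a product of endothelial and smooth muscle cells among others, read 11.84 and 11.81 in untreated and DMSO MCF10-titled cells and 6.57 to 8.07 in MDA-MB-231. It was higher by 2.96 ± 0.43 over the 4 treatments (limma adjusted p = 0.000114). At DZH_2 IC20 and IC50 the MCF10-titled arrays read 8.84 and 9.38, against MDA-MB-231 means of 7.23 and 7.30. In untreated and DMSO cells the MDA-MB-231 means were 7.52 and 7.61. The value of 2.96 thus averages line differences that were unlike between treatments. COL4A5, a chain of the basement membranes of kidney glomerulus and skin, read 6.20 to 8.30 in the MCF10-titled arrays and 4.22 to 5.04 in MDA-MB-231. It was higher by 2.72 ± 0.30 (limma adjusted p = 1.29e-05), at least 2.19-fold over the negative control limit, and COL4A5 and COL6A3 were the only collagen genes above the limit in all 4 MCF10-titled groups and no MDA-MB-231 group. COL28A1 was higher by 1.21 (limma adjusted p = 0.000682), with 7.49 to 8.55 against 6.38 to 7.41, so its arrays did not overlap. COL9A1, a FACIT chain of cartilage, was higher by 1.33 (limma adjusted p = 0.00558), with 6.09 to 8.01 against 5.11 to 6.35, which overlapped.

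The smaller rises were 0.79 for COL25A1, 0.73 for COL1A1, 0.64 for COL20A1 and 0.57 for COL4A4 (limma adjusted p = 0.0055, 0.00431, 0.0197 and 0.0322). Near the negative controls in both lines the rises were 1.22 for COL21A1, 1.21 for COL4A6, 0.80 for COL5A3, 0.74 for COL11A2, 0.71 for COL4A3 and 0.62 for COL14A1 (limma adjusted p = 0.00277, 0.00114, 0.0261, 0.0172, 0.0213 and 0.0395). Genes above the negative control limit in every group of both lines that missed the threshold were COL12A1 (0.18), COL18A1 (-0.17), COL4A2 (0.32), COL1A2 (-0.27), COL23A1 (0.36), COL26A1 (0.25) and COL16A1 (0.26). Of these COL26A1 and COL16A1 lay close to the limit, with medians of 6.70 and 6.50 in MDA-MB-231. The arrays of the lines did not overlap for 12 of the 21 called genes, 8 of the higher and all 4 of the lower ones. Called or not, 8 of the 41 collagen genes had every MCF10-titled array above the 7 MDA-MB-231 arrays, and 4 had every one below. Over all 17687 genes, called or not, these counts were 2141 above and 3854 below.

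The count of small rises moved with the scaling and the filter. With each array centred on its median, 28 genes were higher and 4 lower, the median difference of all genes moved from 0.02 to 0.37, and the share of higher calls among all genes called moved from 43.0% to 63.9%. With quantile normalization 17 were higher and 4 lower and that share was 53.6%. With dim probe sets left out, 16 collagen genes were tested and 7 were called, 4 higher (COL6A3, COL8A1, COL20A1, COL28A1) and 3 lower (COL6A1, COL6A2, COL13A1). Of the 21 calls 14 held in every alternative that tested them. COL4A3, COL4A4, COL5A3, COL11A2, COL14A1 and COL20A1 each lost theirs when 1 of the MCF10-titled arrays was left out, and COL25A1 with the untreated and DMSO arrays alone. Without the DZH_2 IC20 array the genes that lost calls were COL4A3, COL5A3, COL11A2, COL14A1 and COL20A1, without the untreated array COL4A3, COL4A4, COL5A3, COL11A2 and COL14A1, and without the DMSO array COL4A3, COL4A4, COL14A1 and COL20A1. The upper quartile of log2 signal over genes was 9.25 to 9.55 on the MDA-MB-231 arrays and 8.67 to 8.83 on the MCF10-titled arrays.

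**Figure D4:**
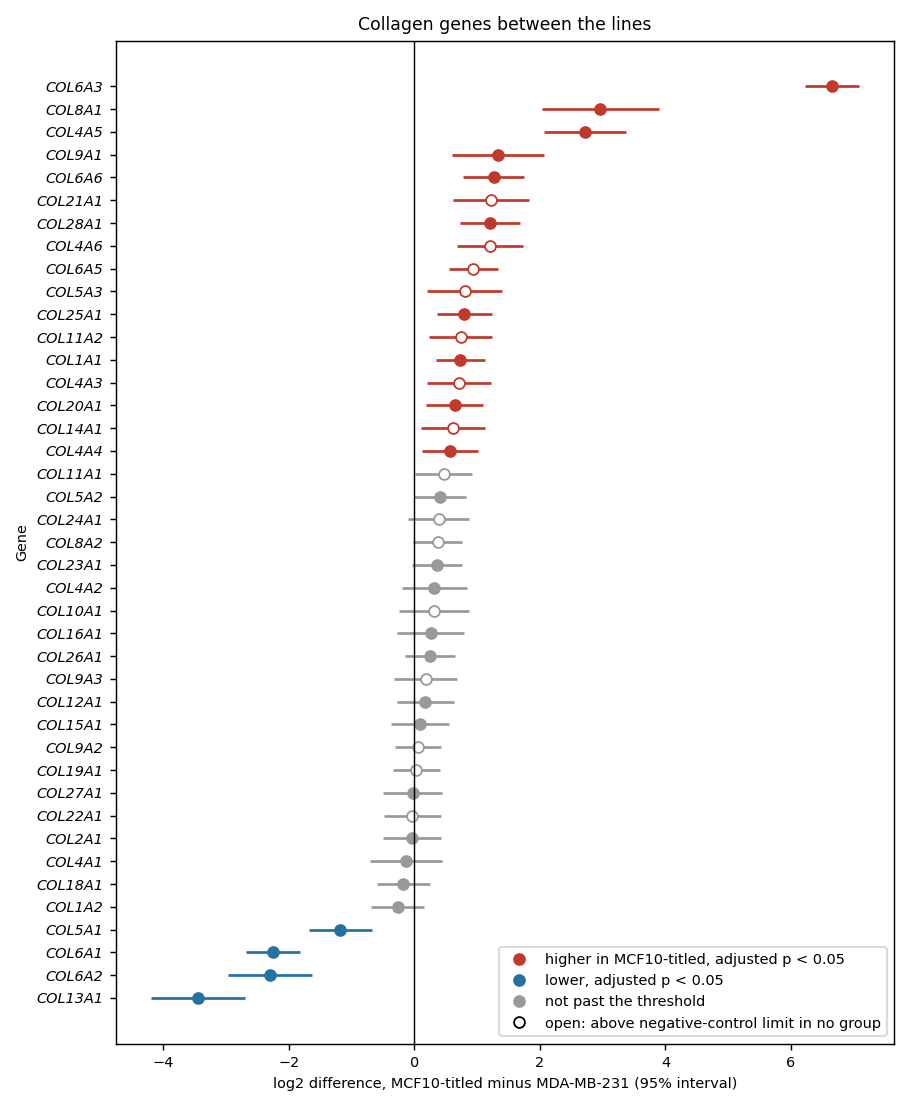
The log2 difference between the MCF10-titled and the MDA-MB-231 arrays is shown with its 95% interval from limma for the 41 collagen genes, red for genes higher and blue for genes lower past the threshold; open circles mark genes above the negative control limit in no group. COL6A3 stands at 6.65 and COL13A1 at -3.44, and 7 of the 17 red circles are open.

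Several of these genes are neighbours. In the RefSeq gene order 6 pairs of the 41 lie next to each other. In the comparison of the lines both genes of COL6A1 and COL6A2 were lower, and both of COL4A4 and COL4A3, of COL6A5 and COL6A6, and of COL4A6 and COL4A5 were higher. For COL19A1 and COL9A1 only the latter was called, and for COL4A1 and COL4A2 neither was. With Maraviroc IC50 the only pair called was COL4A1 and COL4A2.

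Markers of other cell types moved with the lines. The summed log2 signal of 14 stromal fibroblast genes, none of them a collagen, was 105.9 to 111.9 on the MCF10-titled arrays and 72.8 to 80.0 on the MDA-MB-231 arrays, with 9 genes higher and 2 lower. In DMSO, DCN, FBLN1, POSTN and SPARC of that list read 10.30, 13.65, 11.93 and 11.84 in the MCF10-titled array. There LUM and PDGFRA read 4.50 and 4.92, near the negative controls, and 8 of the 14 genes were above the limit. THY1 and PRRX1 went the other way between the lines, by -2.15 and -1.35. Of 7 basal mammary markers 6 were higher and 1 lower, with sums of 53.1 to 66.9 against 36.2 to 47.7. On the MCF10-titled DMSO array 5 of the 7 were above the limit. These were ITGB4 (15.13), S100A2 (14.78), KRT5 (8.92), ITGA6 (8.42) and TRIM29 (8.18). Of 13 epithelial markers 3 were higher and 5 lower (84.0 to 90.0 against 87.3 to 97.8). In the MCF10-titled DMSO array 5 of the 13 were above the limit. These were KRT8 (14.06), KRT18 (12.74), CLDN7 (9.21), GRHL2 (7.99) and CLDN4 (6.36). The others were near the negative controls, CDH1 and EPCAM among them at 4.52 and 4.87. Of 8 mesenchymal markers 3 were higher and 4 lower (69.7 to 75.1 against 63.8 to 79.7). In the MDA-MB-231 DMSO arrays the mesenchymal markers VIM and ZEB1 averaged 16.88 and 12.41 and CDH1 3.57, the last near the negative controls. These markers do not settle the identity of the cells titled MCF10, and their part in the collagen differences was not tested.

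Among the 53 other pathway genes 18 were higher and 8 lower in the MCF10-titled arrays, against 23.1% higher and 30.7% lower among all genes. In the list of modification and folding, P3H2 was lower by -7.15 ± 0.23 (limma adjusted p = 1.35e-09), near the negative controls in the MCF10-titled arrays and at least 44.5-fold higher in MDA-MB-231. P4HA1 was lower by -2.52 and P4HA2 higher by 3.21 (limma adjusted p = 0.000161 and 9.31e-08), both catalytic subunits of the same enzyme. PLOD1, a lysyl hydroxylase, was higher by 1.74 (limma adjusted p = 4.99e-06). Of the 8 cleavage genes 4 were higher, led by BMP1, the procollagen C-proteinase, at 3.06 ± 0.18 (limma adjusted p = 1.12e-07), with PCOLCE, its enhancer, at 0.80 (limma adjusted p = 0.00254). The related proteinases TLL1 and TLL2 were higher by 1.02 and 0.63 (limma adjusted p = 0.00517 and 0.0156). TLL1 was near the negative controls in both lines, and TLL2 lost its call without the DZH_2 IC20 array or the DMSO array of the MCF10-titled cells.

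Collagen receptors split, with 4 of 9 higher and 2 lower. ITGA2, an integrin chain that binds collagen, was lower by -5.30 (limma adjusted p = 7.17e-08). ITGA10, another such chain, the endocytic receptor MRC2 and DDR1 were higher by 2.71, 3.20 and 1.47 (limma adjusted p = 2.49e-05, 3.9e-06 and 0.000634). Among 8 breakdown genes 5 were higher and 1 lower. MMP2, a gelatinase, was higher by 8.24 ± 0.30 (limma adjusted p = 3.1e-09), at least 163-fold over the negative control limit, and MMP14, a membrane collagenase, was lower by -3.83 ± 0.36 (limma adjusted p = 4.18e-06). FAP, a fibroblast protease, was higher by 2.35 (limma adjusted p = 9.4e-05), with 2 of 4 MCF10-titled arrays above the limit and all 7 MDA-MB-231 arrays below it, so that the fold is at least 1.01, and the collagenase MMP8 by 0.87 (limma adjusted p = 0.00195), near the negative controls in both lines. MMP2 and FAP also stand in the stromal fibroblast list. LOXL4 was lower by -1.12 as the only call among 4 cross-linking genes (limma adjusted p = 0.000405), with both lines near the negative controls. In the export list CREB3L1 and MIA2 were lower by -1.81 and -1.57 (limma adjusted p = 0.000169 for both). CREB3L1 was above the limit on 0 of 4 MCF10-titled and 3 of 7 MDA-MB-231 arrays, and MIA2 on 1 of 4 and 5 of 7.

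DZH_2 in the MCF10-titled cells was measured with 1 array per group, so these differences have no replicate check and no test. One rule of size was used: a log2 difference from DMSO of at least 1 in the same direction at both doses. COL8A1 was the only collagen gene to meet it. It read 11.84 in untreated cells and 11.81 in DMSO, then 8.84 at IC20 and 9.38 at IC50, differences of -2.97 and -2.43 from DMSO, or 0.127 and 0.185 times. All 4 values were above the negative control limit, and the 2 treated values lay below both control values. Among all genes 4.88% were lower and 4.52% higher by this rule, so 1 of 41 lower and 0 of 41 higher is not above that background. In MDA-MB-231 the COL8A1 differences were -0.37 and -0.30, with both solvent arrays at 7.66 and 7.55 and the IC20 arrays at 6.57 and 7.90. COL8A1 met the rule with quantile normalization and with the untreated array in place of DMSO as well.

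Other collagen genes moved by at least 1 at IC20 alone, where 5 were higher and 3 lower, COL8A1 included; at IC50 none was higher and COL8A1 was the only one lower. Among all 17687 genes 2060 were higher and 2264 lower by that size at IC20, and 1659 and 1562 at IC50. COL6A2 differed by -1.71 at IC20 and by 0.33 at IC50, while in MDA-MB-231 it differed by 0.66 and 0.96. COL4A5 differed by 1.35 and 0.18, and COL9A1 by 1.07 and -0.85. The others were COL11A2 (1.35 and 0.70), COL5A3 (1.15 and 0.23), COL9A3 (1.06 and 0.38) and COL24A1 (-1.05 and -0.46), all near the negative controls. COL6A3 read between 10.85 and 11.30 on all 4 arrays. COL1A2 differed by -0.83 and -0.68.

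**Figure D5:**
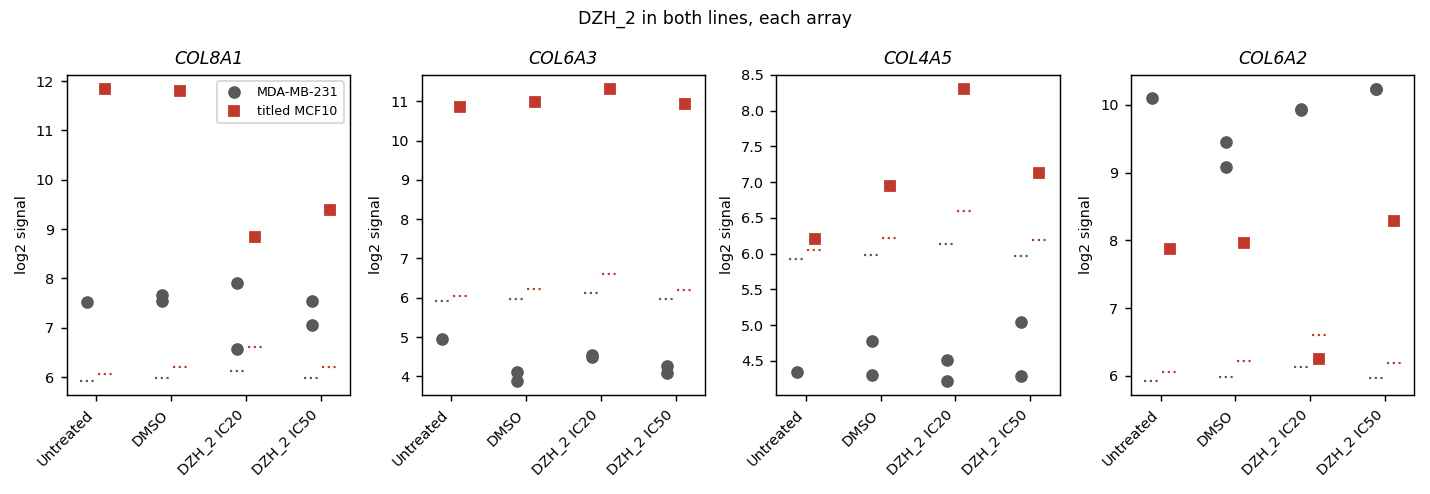
The log2 signal of COL8A1, COL6A3, COL4A5 and COL6A2 is shown on each array of the 4 treatments that both lines received, as grey circles for MDA-MB-231 and red squares for the MCF10-titled arrays; dotted lines mark each group's negative control limit. The red squares of COL8A1 drop from 11.81 in DMSO to 8.84 and 9.38 with DZH_2, and the only red square of COL6A2 below its dotted line is that at IC20 (6.25).

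Of the other pathway genes in the MCF10-titled cells, 2 of 53 were lower and 3 higher by the rule of size at both doses, near the 4.88% lower and 4.52% higher among all genes; they are named with their values known. CRTAP and PPIB were lower, CRTAP by -2.37 and -1.12 and PPIB, a prolyl isomerase that binds the prolyl 3-hydroxylase complex, by -2.17 and -1.26. SEC23A, a coat protein of vesicles leaving the endoplasmic reticulum, the integrin chain ITGB1 and FAP were higher. SEC23A differed by 1.44 and 2.43, ITGB1 by 1.65 and 1.30, and FAP by 2.204 and 2.26 from a DMSO value near the negative controls.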

How the data were processed

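The authors deposited log2 signals for 24351 probe sets on each of 17 Affymetrix arrays. Per the labels, total RNA was extracted with Trizol and labelled with the GeneChip WT PLUS kit. How the signals were background-corrected, summarised and normalized, and on which genome build the array was designed, is not stated in the labels. The values were used as deposited. Arrays carry no counting depth, and their number limits the precision. Groups came from the sample titles.

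Of the probe sets 17709 had exactly 1 gene symbol; for 20 genes with several, the one with the highest mean signal was kept, which left 17687 genes. Every collagen gene had 1 probe set. For the treatments, a group-means model over 12 arrays (6 MDA-MB-231 groups of 2) was fitted in R 4.3.3 with limma 3.58.1 through lmFit, contrasts.fit and eBayes (files were read with data.table at version 1.17.8), with 6 residual degrees of freedom. The lines were compared in 11 arrays, 4 titled MCF10 and 7 of MDA-MB-231, with line and treatment as terms and 6 residual degrees of freedom. Tests were 2-sided, adjusted by Benjamini-Hochberg over all genes at 0.05. Standard errors (±) and 95% intervals come from the fits. A fold given as "at least" sets the mean of the brighter side against the negative control limit of the dimmer side's arrays. The fit was tested on simulated data.

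Named with values were collagen genes past the threshold in any comparison or above the 75th percentile of the negative controls in at least 1 group, and up to 4 genes with the smallest p from each other list, or all called genes where fewer than 6 were. The collagen genes and the lists were chosen with earlier results of these data known. Alternatives were other scaling, a filter on dim probe sets, array weights, other sets of arrays, a replicate block and leaving out each array. Promoter sequences are from RefSeq (GRCh38.p14), matched by gene identifier.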

Additional observations from a re-analysis of the deposited data

Results flagged for a closer look

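The responses of COL13A1 and COL6A2 to the compounds at IC50 in MDA-MB-231 differed by the test of the difference itself. DZH_2 minus Maraviroc, each against its solvent, was 2.59 for COL13A1 (limma adjusted p = 0.0361) and 1.40 for COL6A2 (limma adjusted p = 0.043). The call held in 7 of 14 alternatives for COL13A1 and in 5 of 14 for COL6A2, and both were lost with the groups compared alone. For both genes the ethanol arrays were above the DMSO arrays, which enters these differences.

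For 3 genes every DZH_2 value lay on opposite sides of DMSO in the 2 lines, and the difference between the lines was not tested. The share of all genes that meet this rule was not computed, so the count has no background to be set against. Within a line the DZH_2 values were all set against the same DMSO value, from 1 array in the MCF10-titled cells. The mean DZH_2 difference from DMSO in the MCF10-titled arrays minus that in MDA-MB-231 was 0.94 for COL4A1 (0.43 and 0.12 at the doses in the MCF10-titled arrays, -0.87 to -0.52 on the MDA-MB-231 arrays). It was -0.79 for COL4A4 (-0.26 and -0.33 against 0.22 to 0.71), which was above the negative control limit in 1 of 7 MDA-MB-231 and 2 of 4 MCF10-titled groups. Against the untreated MCF10-titled array the COL4A4 differences were 0.015 and -0.051. The line difference in mean DZH_2 response was -1.07 for COL24A1 (-1.05 and -0.46 against 0.14 to 0.54). COL24A1 was near the negative controls in every group. COL4A1 was above the limit in 4 of 7 MDA-MB-231 and 1 of 4 MCF10-titled groups.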

How the results depend on the processing

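No difference of a called collagen gene changed sign under the alternatives run. The count called for Maraviroc IC50 against ethanol was 6, and 3 with the groups compared alone and 3 to 7 with 1 array left out. For Maraviroc IC50 against IC20 it was 4, and 2 with array weights, 2 with the groups compared alone and 2 to 6 with 1 array left out. For DZH_2 IC50 against DMSO it was 0, and 2 with array weights, 2 without the Maraviroc IC50 arrays and 1 with all 5 control arrays; for DZH_2 IC20 it was 0, and 1 with all 5 control arrays. For the compounds at IC50 it was 2, and 1 with median centring, 1 with array weights, 0 with the groups compared alone and 0 to 4 with 1 array left out. Between the lines it was 21, and 32 with median centring and 7 of 16 tested with dim probe sets left out, where fewer genes were tested. Apart from that filter, the cause of these changes was not tested. The number of other pathway genes called for Maraviroc IC50, an alternative chosen after seeing the data, was 15, and 9 with the groups compared alone.

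With the replicate number as a block, the count for Maraviroc IC50 against ethanol was 7 and included COL6A1 (the ethanol and Maraviroc IC50 deviations correlated at 0.122 by number); it was 4 for Maraviroc IC50 against IC20, 2 for the compounds at IC50 and 0 elsewhere in MDA-MB-231. The labels give only a number, and deviations of same-numbered replicates correlated at -0.149 to 0.301 across genes over 15 pairs of groups, so not every pair was over 0.1. No block was possible between the lines because each MCF10-titled group has 1 array. The alternative of the dimmer probe set was not run, since no collagen gene has several.

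With 2 arrays a group, and most collagen genes near the negative controls, small differences were not resolved.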
